A study of Homo sapiens with 12 samples.

Results

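Doxycycline was used to induce the G398S form of A1CF in Huh7 cells, a human hepatoma line that here carries an inducible construct for it, and RNA was sequenced. The genes described are all 1863 rows of the authors' comparison of this clone that were analysed here, out of 2005 rows in that comparison and the corresponding one for the wild-type form. The first group is the G398S clone induced with doxycycline, and the second is the same clone grown with no doxycycline, with 3 libraries in each group. The series also holds a clone with an inducible wild-type A1CF construct, for 12 libraries in 4 groups. Both groups here carry the construct and come from 1 clone. No group received doxycycline without an inducible construct, so an effect of doxycycline and an effect of the induced protein cannot be told apart. Nothing in the labels ties the libraries of a group to separate cultures, so the spread behind the deposited p-values may be technical alone.

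A1CF is an RNA-binding protein of liver and intestine. It is best known as a cofactor of APOBEC1, the cytidine deaminase that edits the messenger RNA of apolipoprotein B and so leads to the short form of that protein. A1CF also binds other transcripts, in particular sequences rich in A and U. The title of the study places the comparison of wild-type and mutant A1CF in the setting of cellular lipid metabolism.

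The deposited values are FPKM, which count the fragments of a gene scaled by its transcript length and by the library's mapped fragments. There is 1 pooled FPKM value for each gene and group, so no value below carries a replicate spread, and the depth of the libraries is unknown. Each gene passed the authors' own test at a q-value (a p-value adjusted for the false discovery rate) of at most 0.05, and rose and fell are used in that sense. The ranks of the deposited p-values and q-values give 17072 genes tested and 2114 called, or 12.4%, of which 1863 were analysed here. A gene that is not among them was not analysed here, and nothing follows for it. Changes are given as log2 change, meaning the log2 ratio of the FPKM with doxycycline to the FPKM without it after 1 FPKM was added to both, which understates the change of genes with low FPKM.

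Of the 1863 genes, 863 (46.3%) were higher with doxycycline and 1000 (53.7%) were lower. Most changes were small, with a median absolute log2 change of 0.40. The large changes were mostly rises. At least 2-fold, 66 genes (3.54%) were higher and 10 genes (0.537%) were lower. At a log2 change of 2 or more the counts were 13 genes higher and 1 gene lower, and at 3 or more they were 7 and 0. At 0.5 or more, 315 genes were higher and 238 were lower.

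**Figure D1:**
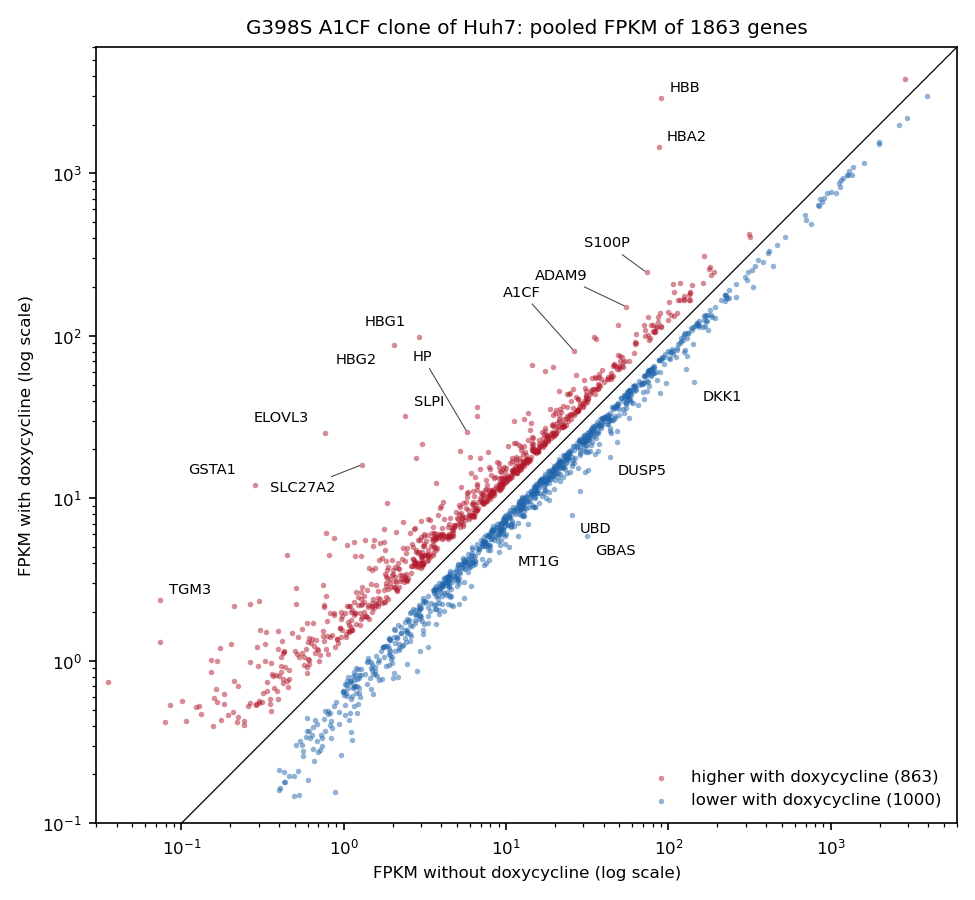
FPKM with doxycycline (vertical axis, log scale) against FPKM without it (horizontal axis, log scale) in the G398S clone, with 1 point for each of the 1863 genes and the line of equality drawn. Red points (863) are higher with doxycycline and blue points (1000) are lower, and GSTA1, HBG2, HBG1, ELOVL3, TGM3 and HBB lie between 31.9 and 42.7 times the line, while GBAS lies 5.37-fold below it.

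A1CF itself is the check of the labels. The gene, at chr10:52559153-52645465 on hg19, had 80.9 FPKM with doxycycline, against 26.3 FPKM without it, a log2 change of 1.59. In the authors' deposited table its log2 fold change was 1.62 (q = 0.00104). The direction is that of an induction, and the level without doxycycline was not near 0. The values do not separate RNA of the construct from RNA of the resident gene. Among other genes of the editing list, BAG4, a co-chaperone regulator known to bind the editing enzyme, had 18.7 FPKM with doxycycline and 12.6 FPKM without it. RBM47, an RNA-binding partner of A1CF in editing, had 6.16 FPKM with doxycycline and 4.71 FPKM without it. The row of 3 joined APOBEC3 symbols, deaminases that act on DNA, had 1.79 FPKM with doxycycline and 1.12 FPKM without it. In all, 4 of 17 genes of that list were analysed here, A1CF among them, and each of the 4 was higher. Among all genes in the same quintiles of GC content as A1CF, BAG4 and RBM47 68.5% were higher, and the joined row has no GC value. That share includes the quintile of A1CF, so it is not a background for the other 3 alone. Their count is not read as a result. APOBEC1 and APOB were not analysed here.

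The largest rises outside the globin genes were in fatty acid handling, detoxification, defence and secreted proteins. ELOVL3, a fatty acid elongase, at chr10:103986035-103989344 on hg19, had 25.4 FPKM with doxycycline, against 0.766 FPKM without it, a log2 change of 3.90. GSTA1, a glutathione transferase of the liver, at chr6:52656178-52668664, had 12.1 FPKM with doxycycline, against 0.284 FPKM without it, a log2 change of 3.36. Its transcript and that of GSTA2 are 95.4% identical where they align, so reads may be shared between them. SLPI, a secreted inhibitor of neutrophil proteases, had 32.0 FPKM with doxycycline, against 2.40 FPKM without it. All were low without doxycycline, and ELOVL3 and GSTA1 were then below 1 FPKM. SLC27A2, which carries and activates very long-chain fatty acids, had 16.1 FPKM with doxycycline, against 1.29 FPKM without it. SMPDL3B, a membrane-anchored relative of acid sphingomyelinase, had 21.6 FPKM with doxycycline, against 3.05 FPKM without it. SERPINA7, the thyroxine-binding globulin of plasma, had 17.8 FPKM with doxycycline, against 2.77 FPKM without it. Each of these had at least 1 FPKM in both groups, so their folds rest less on values near the lower limit. SQRDL, the mitochondrial enzyme that oxidises sulfide, had 36.8 FPKM with doxycycline, against 6.64 FPKM without it, a log2 change of 2.31.

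Rises of a second tier included regulators and surface proteins. RAB27B, a GTPase of secretory vesicles, had 9.38 FPKM with doxycycline and 1.84 FPKM without it. THEMIS2, a signalling adaptor known from immune cells, had 5.74 FPKM with doxycycline and 0.867 FPKM without it, and it lies beside SMPDL3B on chromosome 1. KCNE5, a regulatory subunit of potassium channels, had 4.49 FPKM with doxycycline and 0.445 FPKM without it. These genes were below 2 FPKM without doxycycline, and 6 of the 25 genes with the largest rises had under 1 FPKM without doxycycline. S100P, a calcium-binding protein, was already abundant and had 246 FPKM with doxycycline and 73.4 FPKM without it. TRIB1, a pseudokinase that directs the liver factor CEBPA to breakdown, had 64.6 FPKM with doxycycline and 19.5 FPKM without it. CD38, a surface enzyme that breaks down NAD, had 12.4 FPKM with doxycycline and 3.70 FPKM without it. Of these, TRIB1 rose 3.32-fold, and the transcript of CEBPA fell, at 134 FPKM with doxycycline and 175 FPKM without it. ADAM9, a membrane metalloprotease, had 151 FPKM with doxycycline and 55.0 FPKM without it and a log2 change of 1.44. GPR160, a receptor with no settled ligand, had 19.7 FPKM with doxycycline and 5.22 FPKM without it, but its row spans 3.03 times the RefSeq length of the gene and so takes in other sequence. The smallest of the 25 largest rises was that of CD38, with a log2 change of 1.51, and the next gene below it was IL18, with 1.48.

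**Figure D2:**
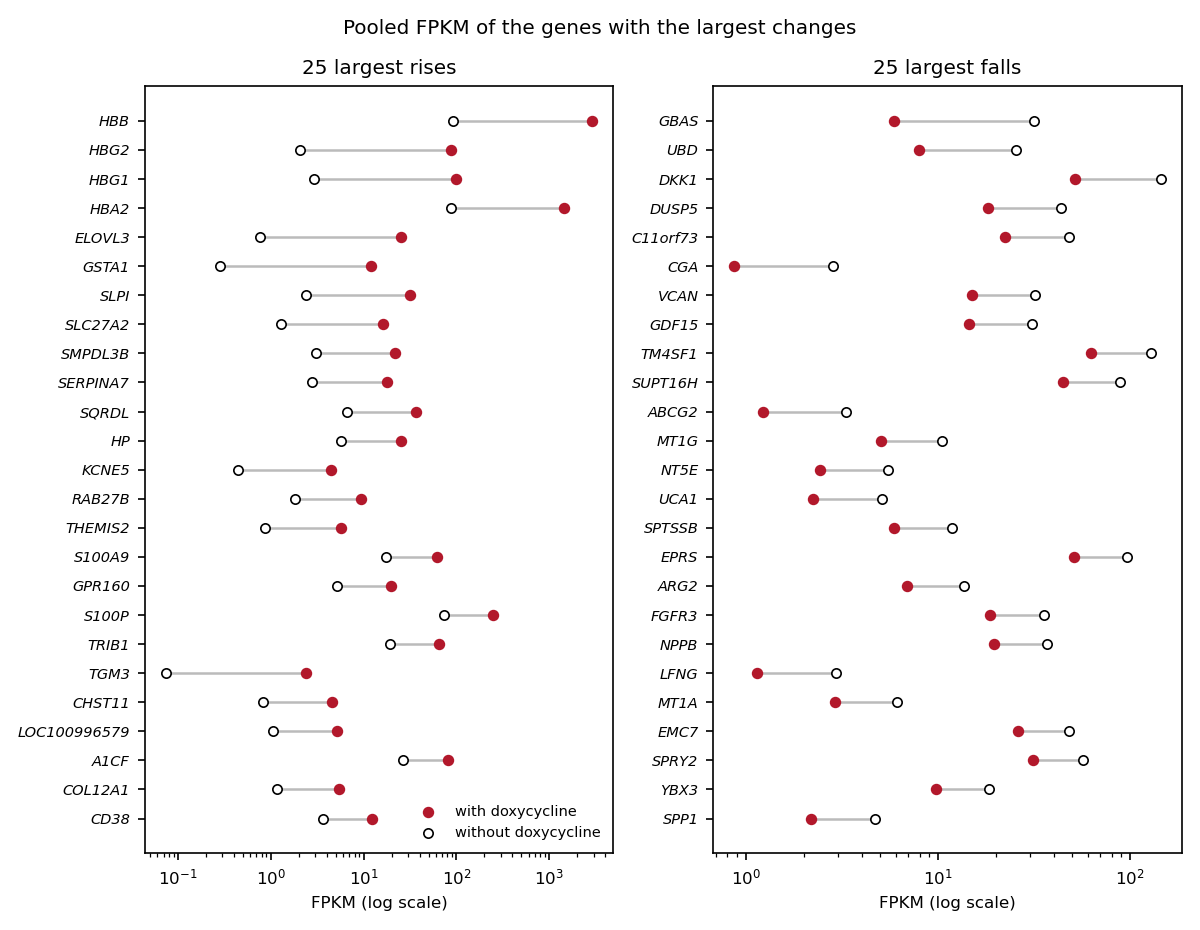
Pooled FPKM (log scale) with doxycycline (filled red) and without it (open) for the 25 largest rises, on the left, and the 25 largest falls, on the right, among genes with a single symbol, no small RNA symbol and at least 1 FPKM in the higher group. Rises reach a log2 change of 4.98 for HBB, whereas the largest fall is that of GBAS at -2.24.

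Falls were smaller than rises. GBAS, a mitochondrial protein of the NIPSNAP family, at chr7:56032270-56067875 on hg19, had 5.89 FPKM with doxycycline, against 31.6 FPKM without it, a log2 change of -2.24. UBD, a ubiquitin-like modifier that marks proteins for the proteasome, had 7.95 FPKM with doxycycline, against 25.4 FPKM without it. DKK1, a secreted antagonist of Wnt receptors, at chr10:54074041-54077417, had 51.7 FPKM with doxycycline, against 144 FPKM without it. The fall of GBAS exceeded that of UBD, the next in order, which had a log2 change of -1.56. DUSP5, a nuclear phosphatase of ERK, had 18.1 FPKM with doxycycline, against 43.5 FPKM without it, a log2 change of -1.22. C11orf73, which carries heat shock protein into the nucleus, had 22.4 FPKM with doxycycline, against 48.1 FPKM without it. VCAN, a large matrix proteoglycan, had 15.0 FPKM with doxycycline, against 31.8 FPKM without it. These genes kept moderate levels with doxycycline, unlike CGA, the alpha chain of glycoprotein hormones, which had 0.868 FPKM with doxycycline, against 2.85 FPKM without it. SUPT16H, a subunit of a histone chaperone that serves transcription, had 44.8 FPKM with doxycycline, against 88.7 FPKM without it. NT5E, a surface enzyme that makes adenosine, had 2.42 FPKM with doxycycline, against 5.48 FPKM without it. Of these, SUPT16H was the abundant transcript and NT5E the scarce one. ABCG2, a drug efflux pump, had 1.22 FPKM with doxycycline, against 3.30 FPKM without it. The long noncoding RNA UCA1 had 2.24 FPKM with doxycycline, against 5.12 FPKM without it. Among further falls, FGFR3, a growth factor receptor, had 18.6 FPKM with doxycycline, against 35.5 FPKM without it, and NPPB, which encodes a natriuretic peptide, had 19.6 FPKM with doxycycline, against 36.9 FPKM without it. The last of the 25 was SPP1, the secreted protein osteopontin, with a log2 change of -0.85. In the authors' deposited table, all 25 rises and 21 of the 25 falls had the smallest q, 0.00104.

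Some rows cover more than the gene they are named for, which bears on several of the values. The row of EPRS, the glutamyl and prolyl tRNA synthetase, spans 5.12 times its RefSeq length, and it had 51.3 FPKM with doxycycline, against 96.2 FPKM without it. The row of GDF15, a stress-induced cytokine, spans 2.40 times its RefSeq length and had 14.5 FPKM with doxycycline, against 30.7 FPKM without it. For IL18, a cytokine of the interleukin-1 family, the span is 6.71 times that length, at 99.0 FPKM with doxycycline, against 34.8 FPKM without it. Of other genes given with values here, the rows of APOA1, BHLHE40, HNRNPH3, ACAA1, NR0B2 and CEBPB span 140.3, 15.0, 10.8, 6.80, 5.43 and 4.63 times their RefSeq lengths. Those of MCM7, VLDLR, TAGLN, GPR160, SLC51B, HES1, SKP2 and RPS12 span 2.02 to 3.78 times, and that of HIST4H4, counted among the histones, 72.3 times. Over all genes with a RefSeq length, 131 of 1763 rows spanned more than 2 times that length. The part of neighbouring sequence in these values was not tested.

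Lipid genes went in both directions. Genes of fatty acid synthesis and elongation were higher in 6 of the 7 analysed here (24 in the list), against 46.3% of all genes. Of all genes in the same quintiles of GC content 53.6% were higher. HACD1, the dehydratase of the elongation cycle, had 4.40 FPKM with doxycycline, against 1.27 FPKM without it. ELOVL4, which makes very long-chain fatty acids, had 2.92 FPKM with doxycycline, against 0.749 FPKM without it. ELOVL2, an elongase of polyunsaturated fatty acids, was the member that fell, at 27.9 FPKM with doxycycline, against 35.3 FPKM without it. The rises in elongation were thus large for ELOVL3, HACD1 and ELOVL4 and small for ELOVL5, which had a log2 change of 0.31. In fatty acid activation and uptake, 3 of 4 genes were higher, against 57.5% of all genes in the same quintiles of GC content. ACSL5, an acyl-CoA synthetase, had 2.97 FPKM with doxycycline, against 1.47 FPKM without it, whereas FABP1, the liver fatty acid-binding protein, had 49.1 FPKM with doxycycline, against 76.2 FPKM without it. Glycerolipid synthesis was higher in 7 of 9 genes, against 48.8% of all genes in the same quintiles of GC content. Its median log2 change was 0.50. AGPAT9, the first acyltransferase of the pathway, had 4.94 FPKM with doxycycline, against 2.45 FPKM without it. GPAM, its mitochondrial counterpart, had 10.8 FPKM with doxycycline, against 7.10 FPKM without it. CEPT1, which makes phosphatidylcholine and phosphatidylethanolamine, fell, at 13.5 FPKM with doxycycline, against 22.5 FPKM without it. MOGAT3, an acyltransferase of monoacylglycerol, also fell, at 2.04 FPKM with doxycycline, against 3.39 FPKM without it. Acyltransferases of the list thus went in both directions.

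Oxidation of fatty acids had 6 of 8 genes higher, against 60.3% of all genes in the same quintiles of GC content. Its median log2 change was 0.30. HSD17B4, a multifunctional enzyme of the peroxisomal pathway, had 132 FPKM with doxycycline, against 108 FPKM without it. SLC25A20, which carries acylcarnitine into mitochondria, had 39.2 FPKM with doxycycline, against 31.4 FPKM without it. ACAA1, the peroxisomal thiolase, fell, at 43.2 FPKM with doxycycline, against 58.7 FPKM without it. The peroxisomal pathway therefore had members in both directions. Ketone body genes and targets of PPAR alpha were lower in 4 of 6 genes. The share higher, 33.3%, was near the 36.2% of all genes in the same quintiles of GC content. PLIN2, which coats lipid droplets, was an abundant member that rose, at 249 FPKM with doxycycline, against 191 FPKM without it. In the droplet and lipolysis list 5 of 8 genes were higher, against 46.3% of all genes in the same quintiles of GC content. They included the lipase CES1, at 2.87 FPKM with doxycycline, against 1.30 FPKM without it. ABHD5, the coactivator of the main triglyceride lipase, also rose, at 32.3 FPKM with doxycycline, against 23.9 FPKM without it.

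Of 8 apolipoprotein and lipoprotein genes, 3 were higher and 5 were lower, with a median log2 change of -0.54, against -0.29 over all genes. The share higher, 37.5%, was near the 39.6% of all genes in the same quintiles of GC content. The members that rose were APOL2 and APOL6, intracellular apolipoproteins L, and VLDLR, a lipoprotein receptor. APOL2 had 13.4 FPKM with doxycycline, against 9.05 FPKM without it. Sterol synthesis was higher in 5 of 6 genes, with a median log2 change of 0.35, against 65.1% of all genes in the same quintiles of GC content. NPC1, which exports cholesterol from lysosomes, was the one that fell, at 3.08 FPKM with doxycycline, against 4.96 FPKM without it. Sphingolipid genes were divided, with 4 of 7 higher, against 48.4% of all genes in the same quintiles of GC content. ASAH1, the acid ceramidase, had 209 FPKM with doxycycline, against 107 FPKM without it. SGMS1, a sphingomyelin synthase, had 55.8 FPKM with doxycycline, against 35.2 FPKM without it. SPHK1, which makes sphingosine phosphate, fell, at 1.43 FPKM with doxycycline, against 2.59 FPKM without it. Bile acid genes were lower in 4 of 5, where 33.1% of all genes in the same quintiles of GC content were higher. NR0B2, the repressor of bile acid synthesis, fell, at 0.264 FPKM with doxycycline, against 0.957 FPKM without it. SLC51B, a subunit of the bile acid exporter, was the exception, at 15.1 FPKM with doxycycline, against 6.90 FPKM without it.

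The list of cytochrome P450 genes and their partners was higher in 6 of 6 analysed genes (34 in the list), with a median log2 change of 0.68. Among all genes in the same quintiles of GC content 58.7% were higher. Over all 6 analysed genes with a CYP symbol, in that list or not, 4 were higher and 2 were lower. Those that fell were CYP2J2, an arachidonic acid epoxygenase listed with the eicosanoid genes, at 4.06 FPKM with doxycycline, against 6.29 FPKM without it, and CYP26B1, which breaks down retinoic acid and was in no list, at 0.862 FPKM with doxycycline, against 1.55 FPKM without it. CYP39A1, an oxysterol hydroxylase, had 29.2 FPKM with doxycycline, against 14.2 FPKM without it. CYP19A1, the aromatase, had a log2 change of 0.91. CYB5A, the cytochrome b5 that supplies electrons, had 116 FPKM with doxycycline, against 70.8 FPKM without it, and POR, the reductase of the system, had 64.7 FPKM with doxycycline, against 49.7 FPKM without it. The rises included abundant electron donors as well as hydroxylases at lower levels. Glutathione genes were higher in 4 of 5. MGST1, the microsomal transferase, had 259.6 FPKM with doxycycline, against 178 FPKM without it. GSTP1, a transferase of high level in this line, fell, at 1092 FPKM with doxycycline, against 1379 FPKM without it. The list of NRF2 targets and aldo-keto reductases had 6 genes analysed here, and 2 of them rose. HMOX1, the haem oxygenase, had 30.8 FPKM with doxycycline, against 12.9 FPKM without it. AKR1C2, a ketosteroid reductase, had 45.6 FPKM with doxycycline, against 21.3 FPKM without it. The other 4, CBR1, SRXN1, ALDH3A2 and KEAP1, were lower, and KEAP1 is the repressor of NRF2 and not a target. AKR1C1 and AKR1C2 transcripts are 97.1% identical where they align, so reads may be shared between them.

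Metallothioneins fell together. These small proteins bind zinc and copper and are switched on by metals through metal response elements. Each of the 5 analysed rows with a single metallothionein symbol was lower, with log2 changes from -0.93 to -0.48. Of all genes in the same quintiles of GC content 35.8% were higher. These metallothionein rows lie in a cluster on chromosome 16, and close neighbours often shared a direction, as described below. MT1X, a zinc-binding member, had 89.6 FPKM with doxycycline, against 142 FPKM without it. MT2A had 76.9 FPKM with doxycycline, against 108 FPKM without it. The row that joins MT1E and MT1M had 200.3 FPKM with doxycycline, against 334 FPKM without it. The abundant members thus fell as well as the scarce MT1G, which had 5.04 FPKM with doxycycline, against 10.5 FPKM without it. Zinc and iron carriers went in both directions. SLC39A14, a zinc and iron importer, had 75.6 FPKM with doxycycline, against 129 FPKM without it. SLC39A8, its close relative, rose, at 22.0 FPKM with doxycycline, against 11.5 FPKM without it. SLC40A1, the iron exporter ferroportin, had 113 FPKM with doxycycline, against 85.7 FPKM without it. MT1E and MT1M are 92.3% identical where their transcripts align, so reads may be shared between them.

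The promoters of MT2A and MT1X are shown because these abundant members moved together and RefSeq held windows for them, 2 of the 7 genes looked up. Each window runs from 250 bases before the start of the gene to 50 after it, 5′ to 3′ on the plus strand, on RefSeq build GRCh38.p14, at chr16:56608334-56608633 for MT2A and chr16:56682220-56682519 for MT1X. Capitals mark the letters TGCNCNC on either strand, with 8 matches in MT2A and 4 in MT1X. This pattern is looser than the core of the metal response element, TGCRCNC, where R is A or G. At least 1 match of the looser pattern is present in 55.2% of 27305 RefSeq promoters and at least 3 in 8.47%. A match is a description of the letters and not a shown binding site.
MT2A: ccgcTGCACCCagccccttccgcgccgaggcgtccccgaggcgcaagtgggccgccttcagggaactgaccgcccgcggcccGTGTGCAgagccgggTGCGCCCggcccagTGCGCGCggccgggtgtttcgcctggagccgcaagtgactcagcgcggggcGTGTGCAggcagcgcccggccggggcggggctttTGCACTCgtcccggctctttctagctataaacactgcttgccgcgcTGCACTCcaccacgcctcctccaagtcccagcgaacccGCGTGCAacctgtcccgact
MT1X: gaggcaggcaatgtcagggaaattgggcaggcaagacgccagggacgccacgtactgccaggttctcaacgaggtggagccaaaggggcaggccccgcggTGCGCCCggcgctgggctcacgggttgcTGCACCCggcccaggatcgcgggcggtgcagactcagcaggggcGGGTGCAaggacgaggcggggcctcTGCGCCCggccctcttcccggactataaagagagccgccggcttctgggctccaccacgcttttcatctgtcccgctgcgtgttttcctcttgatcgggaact

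Acute phase genes rose together. These plasma proteins are made by hepatocytes and are induced by interleukin-6 and interleukin-1 through STAT3, C/EBP and NF-kappaB. All 7 of the 26 genes on the list that were analysed here were higher, with a median log2 change of 1.23. Among all genes in the same quintiles of transcript GC content, the share of G and C bases, 38.4% were higher. The row of SAA2 and SAA4, serum amyloid A proteins, had 66.5 FPKM with doxycycline, against 14.5 FPKM without it. HP, haptoglobin, had 25.6 FPKM with doxycycline, against 5.76 FPKM without it. ORM1 and ORM2, the orosomucoids of plasma, had log2 changes of 1.40 and 1.23. LBP, which binds bacterial lipopolysaccharide, had 0.624 FPKM with doxycycline, against 0.182 FPKM without it, and IL6R, the receptor of interleukin-6, had 1.98 FPKM with doxycycline, against 1.26 FPKM without it. The 4 rows at least 2-fold higher were thus those of serum amyloid A, haptoglobin and the orosomucoids, and LBP was below 1 FPKM in both groups. HPR, a haptoglobin-related protein next to HP, had 4.16 FPKM with doxycycline, against 1.98 FPKM without it. Reads of near-identical copies may be shared, since ORM1 and ORM2 transcripts are 95.9% identical where they align and those of HP and HPR are 77.5% identical. TRIB1, named above, and CEBPB, a C/EBP factor of the acute phase, both rose. CEBPB had 10.2 FPKM with doxycycline, against 5.75 FPKM without it. CEBPA, also named above, and the NF-kappaB subunits NFKB1, NFKB2 and RELB fell. A link between these regulators and the acute phase genes was not tested.

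The ORM1 promoter is shown as that of an acute phase gene with a window in RefSeq, where 2 of the 7 genes had one. It lies at chr9:114322848-114323147 on the plus strand of GRCh38.p14. Capitals mark TTNNGNAA, a short C/EBP consensus, on either strand, with 2 matches. At least 1 match is present in 37.3% of all RefSeq promoters.
ORM1: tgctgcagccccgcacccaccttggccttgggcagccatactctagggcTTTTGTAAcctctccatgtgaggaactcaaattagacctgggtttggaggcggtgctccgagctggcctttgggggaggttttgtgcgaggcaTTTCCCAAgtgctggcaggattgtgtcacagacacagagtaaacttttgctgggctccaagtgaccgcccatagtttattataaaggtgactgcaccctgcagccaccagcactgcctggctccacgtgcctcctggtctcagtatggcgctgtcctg

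Other secreted liver proteins moved in both directions. Of 16 hepatocyte secreted protein genes analysed here, 8 were higher. INHBE, an activin chain made by the liver, had 10.9 FPKM with doxycycline, against 5.84 FPKM without it. RBP4, which carries retinol in plasma, rose, and A2M, a broad protease inhibitor, fell, at 7.91 FPKM with doxycycline, against 12.7 FPKM without it. SERPINA5, the protein C inhibitor, had 27.1 FPKM with doxycycline, against 43.6 FPKM without it, and SERPINA6, which carries cortisol, had 14.4 FPKM with doxycycline, against 20.3 FPKM without it. The serpin genes therefore did not move as one family. Complement had 3 of 6 genes higher. C5, a late component, had 117 FPKM with doxycycline, against 77.8 FPKM without it, while MASP1, a protease of the lectin pathway, had 31.5 FPKM with doxycycline, against 47.3 FPKM without it. Coagulation had 4 of 8 genes higher. PROS1, the protein S cofactor, had 107 FPKM with doxycycline, against 80.1 FPKM without it, and F2, prothrombin, had 65.6 FPKM with doxycycline, against 81.3 FPKM without it.

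Genes of amino acid and glucose metabolism were also split. In amino acid catabolism and the urea cycle 4 of 12 genes were higher. CPS1, the first enzyme of the urea cycle, had 1.71 FPKM with doxycycline, against 0.591 FPKM without it. ARG2, the mitochondrial arginase, had 6.91 FPKM with doxycycline, against 13.7 FPKM without it, and GLUD1, which releases ammonia from glutamate, had 176 FPKM with doxycycline, against 125 FPKM without it. Glucose and glycogen genes were higher in 5 of 11. PPP1R3B, which targets a phosphatase to glycogen, had 14.3 FPKM with doxycycline, against 6.12 FPKM without it. HK2, a hexokinase of tumour cells, had 16.6 FPKM with doxycycline, against 8.79 FPKM without it, and PYGL, the liver glycogen phosphorylase, had 55.4 FPKM with doxycycline, against 35.7 FPKM without it. SLC2A1, a glucose transporter, fell, at 6.72 FPKM with doxycycline, against 9.83 FPKM without it. Rises thus included an enzyme of glycogen breakdown and a subunit known to favour glycogen synthesis. Among ATF4 targets 6 of 16 were higher. PSAT1, an enzyme of serine synthesis, had 162 FPKM with doxycycline, against 100.3 FPKM without it, while the amino acid carrier SLC1A5 had 31.2 FPKM with doxycycline, against 42.5 FPKM without it.

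Genes of mucosal defence rose, with exceptions. Of 7 analysed genes (32 in the list), 5 were higher, each at least 2-fold, with a median log2 change of 1.45 over the 7. Over all genes 46.3% were higher and 3.54% were at least 2-fold higher. In the same quintiles of GC content 42.7% were higher. S100A9, a subunit of calprotectin, had 61.2 FPKM with doxycycline, against 17.3 FPKM without it. PI3, the elastase inhibitor elafin, lies near SLPI on chromosome 20 and had 18.0 FPKM with doxycycline, against 5.98 FPKM without it. TGM2, the tissue transglutaminase, had 17.7 FPKM with doxycycline, against 6.95 FPKM without it, and TGM3, its epidermal relative, had 2.38 FPKM with doxycycline, against 0.0742 FPKM without it. The members that fell were LYZ, lysozyme, at 3.87 FPKM with doxycycline, against 7.29 FPKM without it, and SPINK1, a trypsin inhibitor, at 286 FPKM with doxycycline, against 384 FPKM without it. Of the transglutaminases, TGM3 was below 0.1 FPKM without doxycycline and TGM2 was above 1 FPKM in both groups.

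The NF-kappaB and cytokine list had 7 of 17 genes higher. CCL20, a chemokine for lymphocytes, had 139 FPKM with doxycycline, against 88.8 FPKM without it, and CXCL16, a membrane-bound chemokine, had 4.95 FPKM with doxycycline, against 2.33 FPKM without it. CXCL8, the main neutrophil chemokine, fell, at 26.2 FPKM with doxycycline, against 36.7 FPKM without it, as did CX3CL1, the fractalkine, at 2.07 FPKM with doxycycline, against 3.63 FPKM without it. LTB, a lymphotoxin chain, had 0.155 FPKM with doxycycline, against 0.888 FPKM without it. NFKBIE, an inhibitor of the pathway, had 3.79 FPKM with doxycycline, against 6.01 FPKM without it. The subunits NFKB1, NFKB2 and RELB fell, with log2 changes of -0.41, -0.47 and -0.52. Chemokines therefore went both ways while these subunits shared a direction. Interferon and antigen presentation genes were higher in 5 of 6 analysed here, with a median log2 change of 0.34. The list holds 64 genes, of which 9.38% were analysed here, against the 12.4% called over all tested genes. Among all genes in the same quintiles of GC content 49.7% were higher. CASP1, the inflammatory caspase, had 1.31 FPKM with doxycycline, against 0.0735 FPKM without it, although its row spans 4.10 times its RefSeq length. CASP4, another inflammatory caspase, had a log2 change of 0.54. CASP1 and CASP4 thus both rose.

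Signalling genes that answer ERK fell, with 10 of 11 genes lower and a median log2 change of -0.48. The share lower among all genes was 53.7%. SPRY2 and SPRY1, feedback inhibitors of receptor kinases, had log2 changes of -0.85 and -0.41. EPHA2, an ephrin receptor, had 6.06 FPKM with doxycycline, against 9.97 FPKM without it. AREG, a ligand of the EGF receptor, had 1.68 FPKM with doxycycline, against 3.10 FPKM without it, and ETV4, a transcription factor of the pathway, had 3.92 FPKM with doxycycline, against 5.84 FPKM without it. ERRFI1, a feedback inhibitor of the EGF receptor, was the one that rose, at 105 FPKM with doxycycline, against 81.4 FPKM without it. Members that fell thus included a receptor, a ligand and a transcription factor. The Wnt list had 6 of 7 genes lower, where 33.3% of all genes in the same quintiles of GC content were higher. LRP5, a Wnt coreceptor, had 19.4 FPKM with doxycycline, against 31.2 FPKM without it, and FZD8, a receptor, had 2.89 FPKM with doxycycline, against 4.44 FPKM without it. DKK1 and DKK3, antagonists, fell as well, with DKK3 at 8.42 FPKM with doxycycline, against 11.9 FPKM without it. Apart from FZD3, a receptor with a log2 change of 0.18, the Wnt receptors and antagonists analysed here thus fell.

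The TGF-beta, BMP and activin list had 10 of 15 genes higher, against 41.0% of all genes in the same quintiles of GC content. BMPR2, a BMP receptor, had 5.14 FPKM with doxycycline, against 3.56 FPKM without it, and TGFBR3, the betaglycan coreceptor, had 7.54 FPKM with doxycycline, against 5.38 FPKM without it. ID2, an inhibitor of helix-loop-helix factors, had 178 FPKM with doxycycline, against 135 FPKM without it, whereas ID3, its relative, had 52.9 FPKM with doxycycline, against 73.9 FPKM without it. LTBP1, which anchors latent TGF-beta in the matrix, fell, at 41.1 FPKM with doxycycline, against 70.9 FPKM without it. The receptors named therefore rose while the matrix anchor and 1 of the ID genes fell. Notch genes were higher in 4 of 8. JAG1, a ligand, had 109 FPKM with doxycycline, against 176 FPKM without it, and HES1, a target, had 30.1 FPKM with doxycycline, against 40.0 FPKM without it. LFNG, which modifies Notch, had 1.15 FPKM with doxycycline, against 2.94 FPKM without it, while NUMB, an inhibitor, rose, at 5.11 FPKM with doxycycline, against 3.08 FPKM without it. DTX4, a ubiquitin ligase of the pathway, RBPJ, its transcription factor, and MAML2, a coactivator, also rose, with log2 changes of 0.77, 0.29 and 0.28. DLL4, another ligand, fell, with a log2 change of -0.39. Members of the pathway thus went in both directions. PRLR, the prolactin receptor, listed with the insulin and IGF axis, had 11.8 FPKM with doxycycline, against 5.31 FPKM without it.

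DNA replication genes fell without exception among those analysed here, 17 of 17 of a list of 55, with log2 changes from -0.51 to -0.29. Among all genes in the same quintiles of GC content 35.7% were higher. The MCM proteins form the replicative helicase, and MCM7 had 123 FPKM with doxycycline, against 172 FPKM without it. POLA2, a subunit of the priming polymerase, had 8.71 FPKM with doxycycline, against 12.9 FPKM without it. CDC45, which activates the helicase, had 23.0 FPKM with doxycycline, against 31.8 FPKM without it, and TK1, the thymidine kinase of S phase, had 17.6 FPKM with doxycycline, against 24.0 FPKM without it. None of these falls reached 2-fold. Few mitosis and repair genes were analysed here, 4 of 59 (6.78%) and 5 of 63 (7.94%), against the 12.4% called over all tested genes. The 4 mitosis genes were lower, and CENPE, a kinetochore motor, had 15.4 FPKM with doxycycline, against 22.2 FPKM without it. The 5 repair genes were also lower, and ATR, the kinase that senses stalled replication, had 6.74 FPKM with doxycycline, against 11.2 FPKM without it. The mitosis and repair members had low GC contents, with medians of 36.4% and 41.4%, and among all genes in the same quintiles of GC content 59.9% and 62.3% were higher. Cyclin and inhibitor genes were divided 4 to 4. CCNG2, a cyclin of resting cells, rose, at 5.48 FPKM with doxycycline, against 3.20 FPKM without it, CCNE1, a cyclin of S phase entry, had 13.2 FPKM with doxycycline, against 17.5 FPKM without it, and SKP2, which marks cell cycle inhibitors for breakdown, had 186 FPKM with doxycycline, against 135 FPKM without it.

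Replication-dependent histone genes, which supply the chromatin of S phase and whose messages end in a stem-loop without a poly(A) tail, were lower in 24 of 24 analysed rows. Their log2 changes ran from -0.80 to -0.32, with a median of -0.43. Summed over the single-symbol rows, H2A genes had 2143 FPKM with doxycycline and 2870 FPKM without it, a ratio of 0.747. The ratio was 0.763 for H2B, 0.753 for H3 and 0.755 for H4. The histone classes therefore fell by nearly the same proportion. HIST1H3J had the largest log2 change, -0.80, and HIST1H4K had 81.4 FPKM with doxycycline, against 127 FPKM without it. The median GC content of the histone rows was 58.3%, and 27.6% of all genes in the same quintiles of GC content were higher. Copies of a histone class are similar in sequence, so reads may be shared among rows.

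Histone promoters are shown because all analysed members moved the same way and RefSeq held windows for 21 of the 27 histone symbols looked up. Capitals mark CCAAT, on either strand. At least 1 match is present in 18 of the 21 windows, or 85.7%, against 35.7% of all RefSeq promoters, and the mean number of matches is 2.38 against 0.521. The windows of 3 divergent pairs overlap (HIST1H2AI and HIST1H2BL, HIST2H2AC and HIST2H2BE, HIST3H2A and HIST3H2BB), so their matches are counted in both. With 1 window kept of each pair, 15 of 18 windows, or 83.3%, hold a match, and the mean is 2.22. HIST1H2AJ, with 5 matches, lies at chr6:27814728-27815027 on the minus strand of GRCh38.p14 and had 23.0 FPKM with doxycycline and 31.8 FPKM without it. HIST2H2AC, with 3 matches, lies at chr1:149886668-149886967 on the plus strand and had 754 FPKM with doxycycline and 1071 FPKM without it.
HIST1H2AJ: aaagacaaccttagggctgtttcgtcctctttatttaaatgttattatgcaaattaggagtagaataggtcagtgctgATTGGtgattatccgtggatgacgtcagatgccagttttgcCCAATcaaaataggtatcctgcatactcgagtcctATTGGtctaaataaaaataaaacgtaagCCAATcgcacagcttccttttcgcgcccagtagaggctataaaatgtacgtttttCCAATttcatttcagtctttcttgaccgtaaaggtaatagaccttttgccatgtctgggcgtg
HIST2H2AC: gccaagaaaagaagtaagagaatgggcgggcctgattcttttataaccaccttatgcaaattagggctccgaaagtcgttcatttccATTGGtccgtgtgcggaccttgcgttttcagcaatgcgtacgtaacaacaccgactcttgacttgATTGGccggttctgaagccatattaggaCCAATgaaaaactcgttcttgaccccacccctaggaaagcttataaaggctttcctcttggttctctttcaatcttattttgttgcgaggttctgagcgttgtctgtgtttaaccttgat

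Ribosome and RNA genes followed. Genes of ribosome biogenesis were lower in 10 of 10 analysed here (49 in the list). Among all genes in the same quintiles of GC content 28.7% were higher. POLR1E, a subunit of RNA polymerase I, had 15.5 FPKM with doxycycline, against 27.8 FPKM without it, and FBL, which methylates ribosomal RNA, had 61.3 FPKM with doxycycline, against 77.0 FPKM without it. Cytosolic ribosomal proteins were lower in 11 of 12 rows analysed here (79 in the list), where 43.8% of all genes of like GC content were higher. RPS12 had 2996 FPKM with doxycycline, against 3939 FPKM without it, and its level without doxycycline was the highest FPKM of any analysed gene in that group. RPS27L, which p53 induces, was the exception, at 165 FPKM with doxycycline, against 135 FPKM without it. Few mitochondrial ribosome genes were analysed here, 7 of 84 (8.33%), against the 12.4% called over all tested genes. Of these 6 were lower, and 32.7% of all genes in the same quintiles of GC content were higher. MRPS22, a small subunit protein, was the exception, at 6.11 FPKM with doxycycline, against 2.57 FPKM without it. None of 18 genes of the mitochondrial DNA list was analysed here. Splicing proteins were divided, with 5 of 9 higher. HNRNPH3, an hnRNP, had 21.1 FPKM with doxycycline, against 12.8 FPKM without it, PTBP2, a splicing repressor, had a log2 change of 0.65, and RBM38, an RNA-binding p53 target, had 10.2 FPKM with doxycycline, against 15.0 FPKM without it. Apart from RPS27L and MRPS22, the ribosomal protein genes analysed here thus fell in both compartments, and RNA-binding regulators did not share a direction.

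The cytoskeletal genes analysed here were lower, as were most genes of like GC content, and matrix genes were mixed. In the list of keratins and intermediate filaments 6 of 6 analysed rows were lower. These were NES, LMNA, KRT19, SYNM, PLEC and EPPK1, so KRT19 was the only keratin. LMNA, the nuclear lamin, had 53.6 FPKM with doxycycline, against 85.2 FPKM without it. NES, nestin, had 11.4 FPKM with doxycycline, against 19.8 FPKM without it. The median GC content of the 6 rows was 61.7%, and 13.1% of all genes in the same quintiles were higher. Actin and contractile genes were also lower in 6 of 6, where 34.7% of all genes in the same quintiles of GC content were higher. TAGLN, transgelin, had 25.4 FPKM with doxycycline, against 44.4 FPKM without it. Collagen and basement membrane genes were higher in 3 of 9, or 33.3%, near the 34.5% of all genes in the same quintiles of GC content. COL12A1, a collagen that coats fibrils, had 5.39 FPKM with doxycycline, against 1.16 FPKM without it, while COL18A1, the source of endostatin, had 27.7 FPKM with doxycycline, against 37.1 FPKM without it. MMP14, a membrane-bound matrix protease, fell, at 20.4 FPKM with doxycycline, against 30.5 FPKM without it, whereas ADAM10, a sheddase, rose, at 91.4 FPKM with doxycycline, against 62.2 FPKM without it. Cadherin CDH6 had 4.15 FPKM with doxycycline, against 7.84 FPKM without it and the gap junction gene GJB2 had 1.53 FPKM with doxycycline, against 0.394 FPKM without it. Members of each of these matrix and junction groups thus moved apart.

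**Figure D3:**
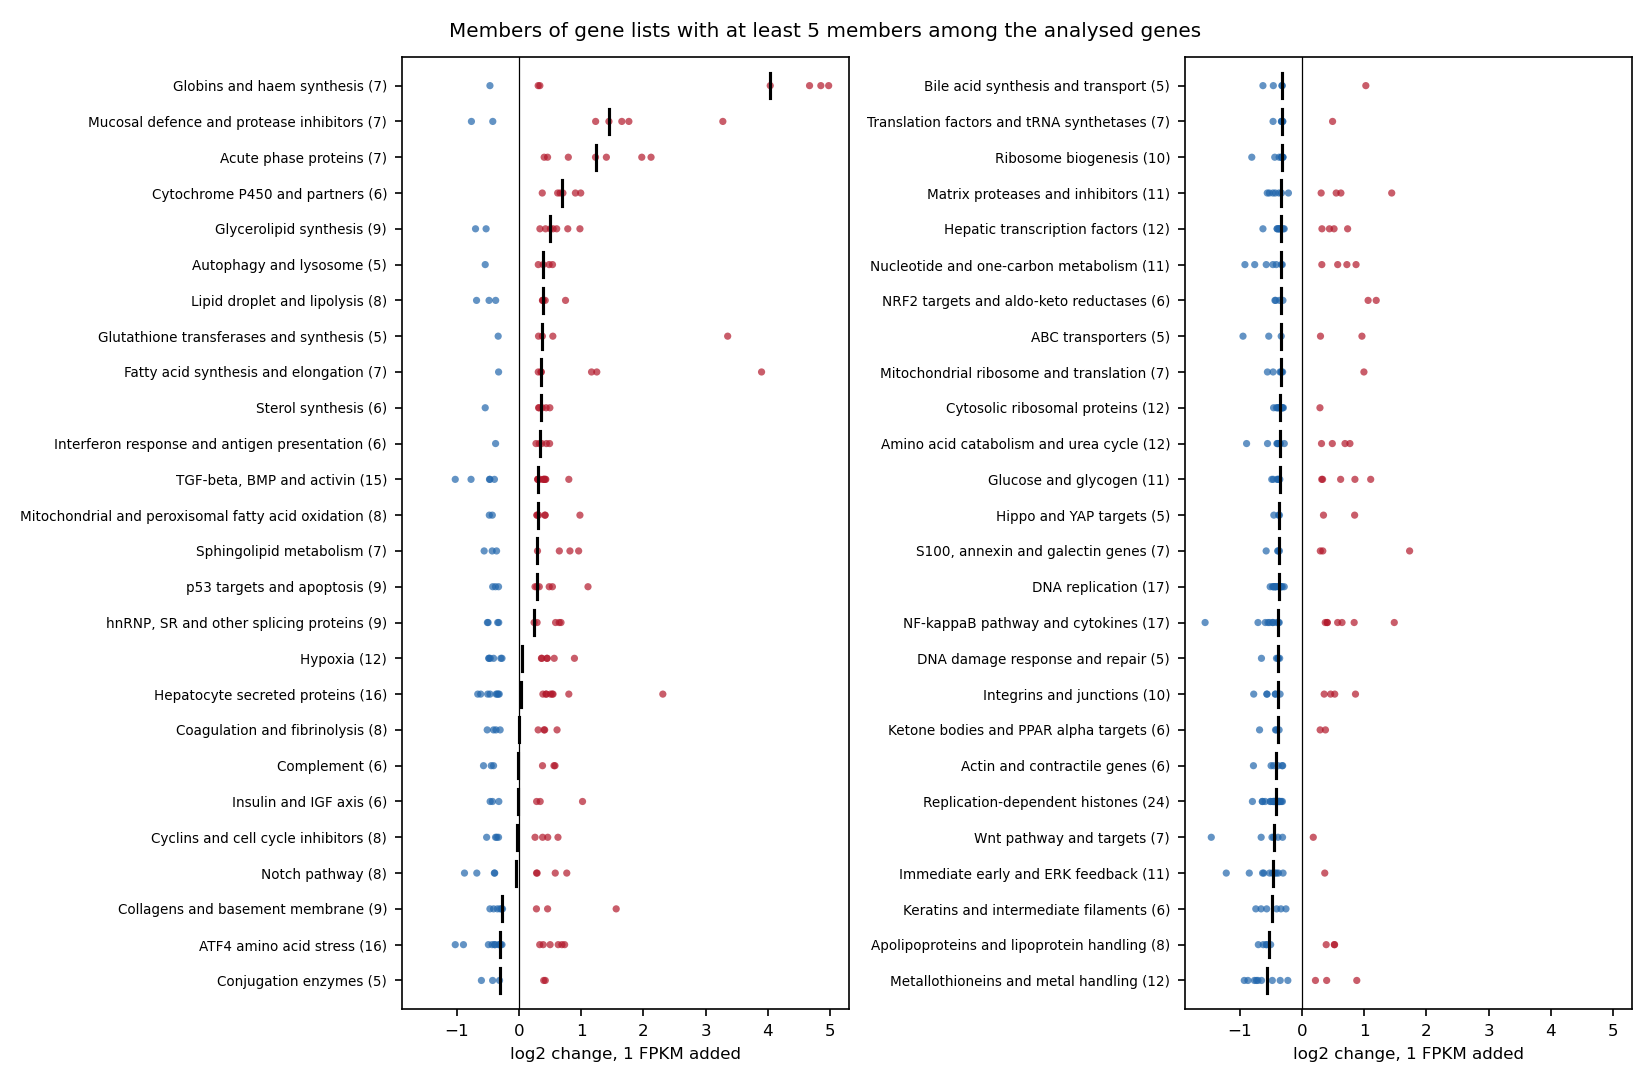
Log2 change with 1 FPKM added (horizontal axis) of each analysed member of the gene lists with at least 5 such members, with the number in brackets and a black bar at the median. Red members are higher with doxycycline and blue members lower, and the acute phase list and the list of cytochromes P450 and partners, which leaves out CYP2J2 and CYP26B1, lie wholly above 0. The histone, DNA replication, DNA repair, keratin and intermediate filament, actin and ribosome biogenesis lists lie wholly below it.

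Globin genes had the largest changes of all. HBB, beta globin, at chr11:5246696-5255858 on hg19, had 2896 FPKM with doxycycline, against 90.7 FPKM without it, a log2 change of 4.98, and its row spans 5.70 times the RefSeq length. HBA2, alpha globin, had 1453 FPKM with doxycycline, against 87.3 FPKM without it. The fetal genes HBG1 and HBG2 had log2 changes of 4.67 and 4.86, and their transcripts are 98.9% identical where they align. Together the 4 genes made up 5.71% of the summed FPKM of all analysed genes with doxycycline and 0.216% without it. Of 23 genes in a list of blood and immune cell markers 3 were analysed here. HBB and S100A9 rose, S100A9 at 61.2 FPKM with doxycycline, against 17.3 FPKM without it, and LYZ fell, at 3.87 FPKM with doxycycline, against 7.29 FPKM without it. Other red cell markers such as ALAS2 and SLC4A1 were not analysed here, so their levels are not known. The library kit, per the labels, removes globin RNA. The part of that step, or of another cell source, in the globin values was not tested.

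Markers of cell types were looked up among the analysed genes. Each analysed gene had passed the authors' test of change, so a stable marker could not appear. The markers therefore give no check of identity. Of 12 hepatocyte and hepatoma markers 2 were analysed here, APOA1 and TF, and both fell, TF at 178 FPKM with doxycycline, against 227 FPKM without it. Of 25 biliary and progenitor markers 4 were analysed here. KRT19, SOX9 and SPP1 fell, KRT19 at 129.6 FPKM with doxycycline, against 193 FPKM without it, and ANXA3, an annexin, rose, at 115 FPKM with doxycycline, against 90.8 FPKM without it. Of 12 stellate and fibroblast markers 3 were analysed here. The receptors PDGFRA and PDGFRB fell, with log2 changes of -0.50 and -0.33, and COL1A2, a chain of type I collagen, rose, at 0.755 FPKM with doxycycline, against 0.447 FPKM without it. Of 12 endothelial markers ESAM alone, a junction protein, was analysed here, and it fell, at 0.674 FPKM with doxycycline, against 1.48 FPKM without it. The markers of these other cell types therefore did not share a direction. APOA1, the main protein of high-density lipoprotein, had 130.2 FPKM with doxycycline and 185 FPKM without it. With whole-culture RNA, fewer cells of a kind and less RNA per cell cannot be told apart.

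Direction went with the base composition of the transcript across the table. Transcript GC content was taken from the longest GENCODE transcript, with a value for 1765 genes, or 94.7%. The genes were divided into quintiles of equal size by GC content. In the lowest quintile, at a median of 38.0%, 76.8% were higher with doxycycline. In the following quintiles the shares were 63.2%, 51.8% and 31.7%. In the quintile with the highest GC content, at a median of 62.6%, 9.35% were higher. The share fell at each step, and the median GC content was 43.3% for genes that rose and 54.5% for genes that fell, against 49.1% for all GENCODE protein-coding genes. Among transcripts no longer than the median, the lowest and highest quintiles had 78.6% and 9.06% of genes higher. Among longer transcripts they had 76.0% and 10.1%. At a q of at most 0.01 they had 75.6% and 11.8%. The pattern was therefore present at both lengths and under the stricter q.

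Large rises did not follow this order as closely. The numbers of genes at least 2-fold higher, from the lowest to the highest quintile of GC content, were 17, 11, 14, 16 and 5. Genes at least 2-fold lower had a median GC content of 43.2%, below that of the genes at least 2-fold higher, at 46.1%. The order therefore described the many small changes more than the few large ones. Transcript length went the other way, with 30.9% of genes higher in the shortest quintile and 60.3% in the longest. By the larger FPKM of the pair, 52.5% were higher in the lowest quintile and 35.7% in the highest. GC content thus gave the widest range of the properties examined. The cause of this pattern was not tested.

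**Figure D4:**
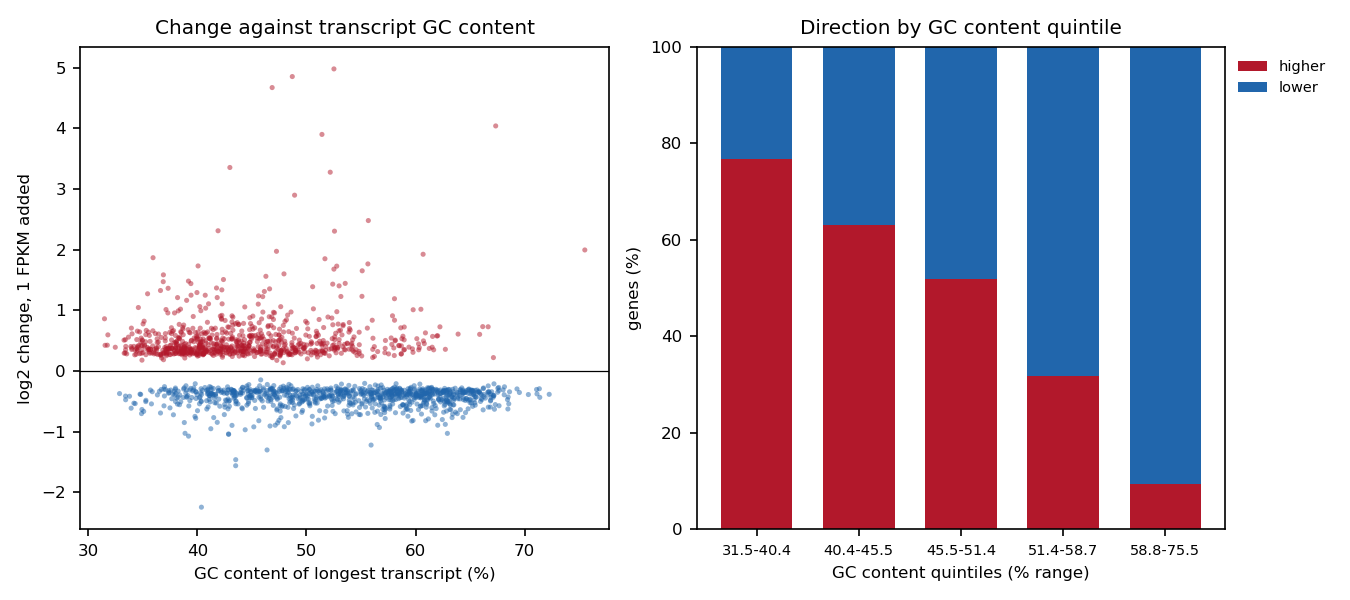
Left, log2 change with 1 FPKM added (vertical axis) against the GC content of the longest transcript in percent, 1 point per gene, red for higher and blue for lower with doxycycline. Right, percent of genes higher (red) and lower (blue) in quintiles of GC content, where the share higher is 76.8% in the lowest quintile and 9.35% in the highest.

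Chromosomes differed along the same line. On chromosome 19, 18 of 103 genes, or 17.5%, were higher, and the median GC content was 59.4%. On chromosome 13, 17 of 22, or 77.3%, were higher, and the median was 42.5%. Within chromosome 19 the zinc finger genes of the ZNF series, which encode repressors and other DNA-binding factors, had 9 of 15 higher and a median GC content of 40.7%. A further 2 rows that join a ZNF symbol with another symbol were both higher. The 86 rows of that chromosome with no ZNF symbol had 7 higher and a median GC content of 60.3%. The ZNF genes of that chromosome thus differed from its other rows in both measures. Their share higher, 60.0%, was near the 56.9% of all genes in the same quintiles of GC content. For the rows with no ZNF symbol that background was 19.9%. Over all chromosomes 17 of 28 ZNF genes, or 60.7%, were higher, against 53.3% of all genes in the same quintiles of GC content.

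**Figure D5:**
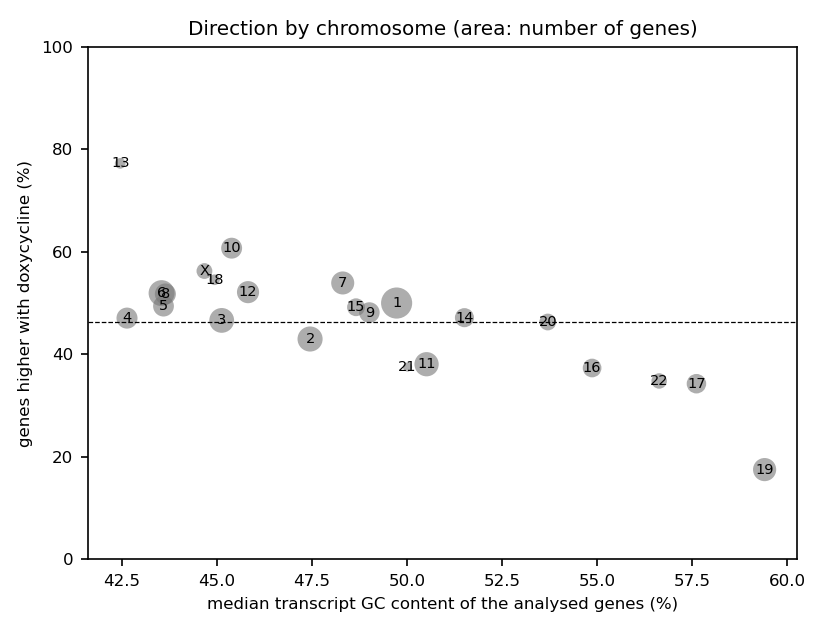
Percent of genes higher with doxycycline (vertical axis) against the median transcript GC content of the analysed genes (horizontal axis, percent), 1 circle per chromosome with its area set by the number of genes and a dashed line at the 46.3% of all genes. Chromosome 19 lies lowest at 17.5% and chromosome 13 highest at 77.3%.

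Neighbouring genes tended to move the same way. Of 155 pairs of adjacent rows no more than 20000 bases apart, 127 (81.9%) had the same direction. The share was 77.0% of 222 pairs up to 100000 bases apart, 59.6% of 763 pairs up to 1000000 bases, and 55.6% of 700 pairs farther apart. Examples among the largest changes are HP and HPR, ORM1 and ORM2, PI3 and SLPI, THEMIS2 and SMPDL3B, the metallothionein cluster on chromosome 16 and the globin genes on chromosome 11. Several of these are paralogs, for which shared reads also bear on the direction. BCO2, a carotenoid oxygenase next to IL18, had a log2 change of 0.81. ATP10D, a lipid flippase, and COMMD8, next to it on chromosome 4, had log2 changes of 0.92 and 0.82. The part of GC content, which moved with direction across the table, was not tested.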

How the data were processed

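Total RNA libraries were made with a stranded kit that removes ribosomal and globin RNA, per the labels' protocols. Genome build hg19, STAR 2.5.0b, bcl2fastq 2.9.1, Cuffdiff and Cufflinks 2.2.1 appear in the submitters' processing notes. Their settings, the Cuffdiff version and any use of strand were not given in the sources used here. Per the file headers, the deposited table holds 1 FPKM value per group, a log2 fold change with no pseudocount, a test statistic (a score) and a p-value and q-value of the authors' comparison. The rows are those the authors marked as significant, so the test and its spread are theirs, and no test was added. Library depth is unknown, and no interval was computed.

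The log2 change was computed after 1 FPKM was added to both groups. The ranks implied by the p-values and q-values gave the number of tested genes, taken as the smallest that makes every rank whole, a step tested on simulated data (5 of 5 recovered). Starts in the deposited table were counted from 0, since the span then equalled the RefSeq length for 52 rows, against 16 rows under the other reading, and 1 was added. Transcript GC content and length came from GENCODE release 29 and promoters from RefSeq GRCh38.p14, matched by symbol, while gene positions are those of the files on hg19. Python 3.11.15, pandas 2.3.3, numpy 2.4.6 and matplotlib 3.10.9 were used.

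The members and the 66 gene lists, with 2512 distinct genes, were chosen with earlier results of these data known, and lists are described by counts and medians with no test. Named genes are A1CF, the 25 largest rises and 25 largest falls among rows with a single symbol, no small RNA symbol, at least 1 FPKM in the higher group and both values above 0, the 8 members of each list with the largest absolute change, and paralogs or cluster neighbours of these. ATP10D, BCO2, COMMD8, CXCL8, CYP26B1, ERRFI1, NFKB1, NFKB2, RELB, RPS27L, SLC40A1 and TF were named after their values were seen. Alternatives were a stricter q, other pseudocounts, and filters on low values, joined or small RNA rows, globin genes and overlapping rows. Some members of the lists are counted but not reported by name here.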

Additional observations from a re-analysis of the deposited data

How the results depend on the processing

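At a q of at most 0.01 the counts were 559 genes higher and 563 lower, against 863 and 1000 at 0.05. The number of genes at least 2-fold higher was 164 with no pseudocount, 136 with 0.1 FPKM added and 27 with 5 FPKM added, against 66 with 1 FPKM. The number at least 2-fold lower was 70, 49 and 5 under the same settings, against 10. These counts depend on the added value, and 114 rows were below 1 FPKM in both groups. Rises outnumbered falls among large changes under each added value. The log2 change of A1CF was 1.62 with no pseudocount and 1.46 with 5 FPKM added. An added constant cannot change the sign of a gene's log2 change, so these settings bear on its size alone. Of 424 named genes other than A1CF 112 had a q above 0.01. Filters on low FPKM, joined or small RNA rows, and, chosen after seeing the data, leaving out the 4 globin genes or overlapping rows kept the counts of genes higher and lower within 1.5 times.

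Of 132 list values (the numbers higher and lower in each list), 41 moved at a q of at most 0.01. The median log2 change of 10 lists changed sign under a filter. With at least 1 FPKM required, that of hepatocyte secreted proteins was -0.32 against 0.03 and that of glucose and glycogen genes was 0.32 against -0.36. No paired analysis was possible because the deposited table holds 1 pooled value per group. Leaving out each replicate was not run for the same reason, so the spread between libraries cannot be judged.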

Other observations

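Further gene groups moved in ways not described above. Small GTPases of the RAB family, which direct vesicle traffic, were higher in 11 of 13 genes, with log2 changes from -0.38 to 1.87 and a median of 0.32, against 46.3% higher among all genes. Their median GC content was 40.5%, and 62.0% of all genes in the same quintiles of GC content were higher. Potassium channel genes of the KCN series were higher in 4 of 4, with a median log2 change of 1.11. For their quintiles of GC content the share higher among all genes was 44.1%. Ubiquitin-conjugating enzymes of the UBE2 series were higher in 4 of 5, where that share was 60.1%. With so few members, neither count is read as a result. Solute carriers were near the background, with 26 of 59 higher. Long noncoding RNA genes with LINC symbols were divided 5 to 5.

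Stress responses were mostly divided or small. Hypoxia genes were higher in 6 of 12, with BHLHE40, a clock and hypoxia repressor, at 7.93 FPKM with doxycycline, against 3.82 FPKM without it, and ADM, the peptide adrenomedullin, at 17.8 FPKM with doxycycline, against 24.0 FPKM without it. EPAS1, the hypoxia factor HIF-2 alpha, had 55.9 FPKM with doxycycline, against 37.5 FPKM without it. Folding genes of the endoplasmic reticulum were higher in 3 of 4 analysed here (33 in the list, 12.1%). Of 32 heat shock genes 2 were analysed here (6.25%), against the 12.4% called over all tested genes. Both rose, and among all genes in the same quintiles of GC content 63.2% were higher. HSP90AA1, the inducible HSP90, had 405 FPKM with doxycycline, against 319 FPKM without it. Autophagy and lysosome genes were higher in 4 of 5 analysed here (60 in the list, 8.33%). Among all genes in the same quintiles of GC content 45.6% were higher. NFIL3, a clock-linked repressor, had 32.8 FPKM with doxycycline, against 19.4 FPKM without it. In nucleotide and one-carbon metabolism 4 of 11 genes were higher, with MTRR, which restores methionine synthase, at a log2 change of 0.87, and ADA, adenosine deaminase, at -0.76. LIMD1, which restrains the LATS kinases of the Hippo pathway, had 43.8 FPKM with doxycycline, against 23.9 FPKM without it. The row of ABCA5 and ABCA10, lipid transporters, had 3.73 FPKM with doxycycline, against 1.43 FPKM without it.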
